A study of Mus musculus with 6 samples.

Results

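The 9 genes described here encode enzymes of the citric acid cycle, namely Cs, Idh2, Idh3a, Idh3b, Idh3g, Ogdh, Dlst, Fh1 and Mdh2. They were chosen by gene name among the array's probes that are not controls, and all 9 were among the 15101 named genes tested. RNA came from LSK cells of bone marrow, the lineage-negative, Sca-1-positive and c-Kit-positive fraction that holds haematopoietic stem cells (HSCs) and early progenitors. All mice were C57BL/6 at P6-P8 and carried Vav-iCre, a Cre recombinase driven in blood-forming cells by the Vav promoter. Controls were Atg5 w/w;Vav-iCre (3 samples) and the others were Atg5 f/f;Vav-iCre (3 samples, written Atg5 f/f;Vav), in which the recombinase is meant to delete Atg5, a gene needed to build autophagosomes. Each sample was hybridised to 1 single-colour Agilent array. Neither the labels nor the methods say how many mice gave a sample, so n and SD refer to arrays, and p-values measure the spread between samples, which may in part be technical.

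The citric acid cycle runs in the mitochondrial matrix, where it oxidises the acetyl group of acetyl-CoA to carbon dioxide and passes the electrons to NADH and succinate dehydrogenase for respiration. Citrate synthase opens the cycle, isocitrate dehydrogenase and the oxoglutarate dehydrogenase complex carry out its oxidative decarboxylations, and fumarase and malate dehydrogenase regenerate oxaloacetate. Its intermediates also leave for the synthesis of lipids, amino acids and haem. Quiescent HSCs are known for a low reliance on mitochondrial respiration, and autophagy is a route by which cells degrade mitochondria.

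Probe positions are those of mm9, the build of the array's design. A value below is the log2 intensity of a probe minus the 75th percentile of log2 intensity over the 59305 spots of its array that are not controls, so that 0 marks the 75th percentile. That percentile was an intensity of 656.8, 651.7 and 746.2 for controls 1 to 3, and of 881.4, 698.4 and 620.3 for Atg5 f/f;Vav 1 to 3. A gene is represented by its brightest tested probe, and a change is called where the limma test, adjusted by Benjamini-Hochberg over all 32074 probes tested, gives p under 0.05. Probes differ in how strongly they bind, so levels are compared only within a probe. In RNA of a mixed fraction, fewer cells of a type and less RNA per cell cannot be told apart. All arrays shared a slide, controls in its row 1 and Atg5 f/f;Vav in its row 2, so an effect of the row cannot be told apart from one of genotype.

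The targeted gene was read first. The single Atg5 probe, at chr10:44083997-44084056 of mm9, gave 1.10, 0.93 and 1.06 in control against 1.46, 1.51 and 1.74 in the samples labelled Atg5 f/f;Vav. It was thus higher where Atg5 was meant to be deleted, by 0.54 ± 0.12 (log2, SE, n = 3 each; limma adjusted p = 0.0209). Whether the probe lies in the deleted part was not determined, so the probe does not check the labels, and every direction given here rests on them.

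Transcripts of the cycle enzymes were higher in the cells labelled Atg5 f/f;Vav. Of the 9 genes, 8 rose and none fell, and the same 8 had every Atg5 f/f;Vav array above every control array. Idh3a rose most, by 1.0 on the log2 scale, and Idh2 alone did not pass the test, at 0.21. The median log2 fold change of the 9 was 0.72, against 0.02 over all named genes tested. Among all 15101 named genes, 21.2% rose, 13.5% fell, and 33.3% had every Atg5 f/f;Vav array above every control array. Bright probes as a whole also lay higher in Atg5 f/f;Vav. Among the 3392 named genes whose mean signal lay in the range of the 9, from 2.27 to 6.34, 41.4% rose and the median log2 fold change was 0.29.

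The count of 8 rested on few arrays and on the scale. Without control replicate 1 or without control replicate 2 none of the 9 passed (limma; 7 had an unadjusted p under 0.05 in either case), and without Atg5 f/f;Vav replicate 2 there were 5. With quantile normalisation, which gives all arrays the same distribution of intensity, 4 rose (Idh3a, Dlst, Fh1 and Mdh2), the median was 0.36, Idh2 turned to -0.14, and the median of the 3392 bright genes was 0.00. With the scale set on the probes detected on all 6 arrays, 6 rose and the median of the 9 was 0.56, while the median over all named genes moved to -0.14. On that scale 3887 of all probes rose and 8744 fell, against 5540 and 5484 on the scale used here.

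**Figure D1:**
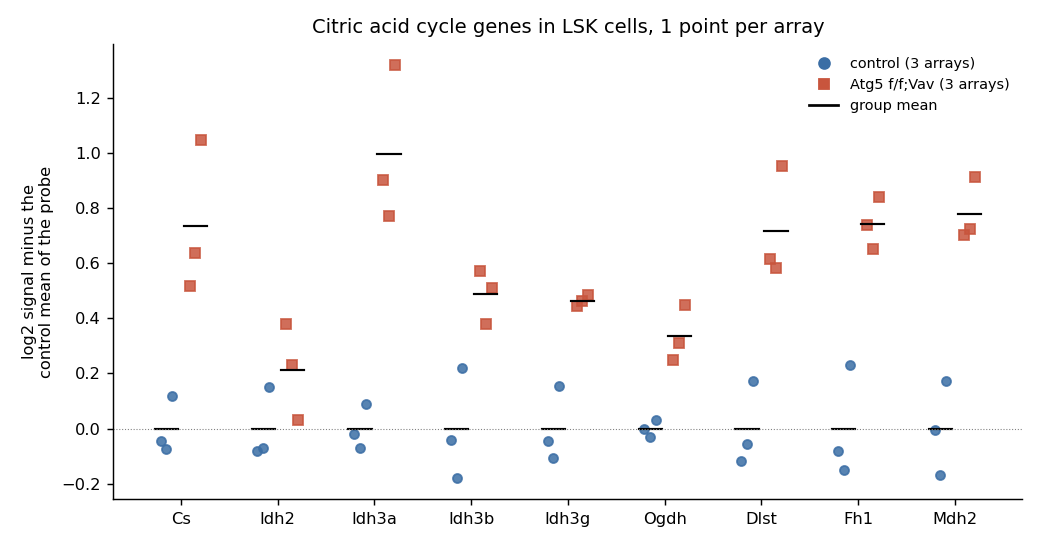
Log2 signal of the probe that represents each of the 9 genes, on each of 3 control arrays (circles) and 3 Atg5 f/f;Vav arrays (squares), minus the control mean of that probe. Bars mark group means, and the groups overlap only for Idh2.

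Citrate synthase (Cs) joins acetyl-CoA to oxaloacetate and so sets the entry of carbon into the cycle. Its probe, at chr10:127799428-127799487 of mm9, gave 4.72, 4.69 and 4.88 in control and 5.28, 5.40 and 5.81 in Atg5 f/f;Vav. No Atg5 f/f;Vav array reached down to a control array, and the gap between the groups was 0.40. Cs rose by 0.73 ± 0.16 (SE; 95% interval 0.35 to 1.12; limma adjusted p = 0.0199), a 1.66-fold difference. The second Cs probe, which starts at base 1435 of the same transcript where the first starts at base 2720, rose by 0.68 (limma adjusted p = 0.0188). With quantile normalisation the difference in Cs was 0.36 and did not pass (adjusted p = 0.0669).

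Isocitrate is oxidised in the matrix by distinct enzymes. IDH3 uses NAD and is built of the catalytic alpha subunit Idh3a with Idh3b and Idh3g, the beta and gamma subunits, whereas Idh2 is a separate enzyme that uses NADP and can run in reverse. Probes of these genes are shown because the subunits of IDH3 are compared with each other and because the probes of Idh3g disagreed. Each is written 5′ to 3′ in the transcript sense, as designed on mm9.
Idh3b, chr2:130106776-130106835, minus strand: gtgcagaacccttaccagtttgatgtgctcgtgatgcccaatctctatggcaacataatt
Idh3g, split over an intron: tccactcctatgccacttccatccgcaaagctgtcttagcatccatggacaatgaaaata
Idh3g, dim probe: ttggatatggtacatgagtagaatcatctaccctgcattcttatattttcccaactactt
Idh2, chr7:87242779-87242838, minus strand: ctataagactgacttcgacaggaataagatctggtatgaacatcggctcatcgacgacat

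Idh3a, read at chr9:54451368-54451427, gave 1.80, 1.75 and 1.91 in control and 2.72, 2.59 and 3.14 in Atg5 f/f;Vav. The lowest Atg5 f/f;Vav array was far above the highest control array. Idh3a rose by 1.0 ± 0.16 (SE; 95% interval 0.61 to 1.39; limma adjusted p = 0.0149). Idh3b rose less, by 0.48 ± 0.14 (limma adjusted p = 0.0356), from 1.99, 1.85 and 2.25 to 2.60, 2.41 and 2.54. The groups did not overlap, although the highest control array and the lowest Atg5 f/f;Vav array lay close together. With quantile normalisation Idh3b was at 0.28 and did not pass (adjusted p = 0.117).

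Idh3g had 3 tested probes on chromosome X. The brightest, at chrX:71024342-71024401 on the minus strand, gave 4.75, 4.69 and 4.95 in control and 5.24, 5.26 and 5.28 in Atg5 f/f;Vav, the tightest Atg5 f/f;Vav group among the 9 genes. It rose by 0.46 ± 0.11 (SE; limma adjusted p = 0.0246). The split probe, whose 60 bases span 354 bases of genome from 71024510 to 71024863 and so match spliced RNA, rose by 0.48 (adjusted p = 0.0348). The dim probe lies 205 bases further upstream, from 71025069 to 71025128, and was designed on another transcript of the gene. Its values were -3.18, -2.83 and -3.07 in control and -3.48, -3.94 and -3.84 in Atg5 f/f;Vav, so that it fell by 0.72 (limma adjusted p = 0.0204) where the other probes of Idh3g rose. Which RNA it bound was not tested. Averaged over its 3 probes, Idh3g differed by only 0.07 between the groups, and with quantile normalisation the brightest probe was at 0.10 with overlapping groups.

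Idh2, whose brightest probe lies at chr7:87239736-87239795, gave 5.40, 5.41 and 5.63 in control and 5.86, 5.71 and 5.51 in Atg5 f/f;Vav. Atg5 f/f;Vav replicate 3 lay below control replicate 3, so the groups overlapped. The difference was 0.21 ± 0.14 (SE; 95% interval -0.11 to 0.53; limma adjusted p = 0.247), and for the Idh2 probe printed above it was 0.39 (95% interval -0.08 to 0.86; limma adjusted p = 0.158). These intervals leave room for a rise of the size seen in Idh3b.

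**Figure D2:**
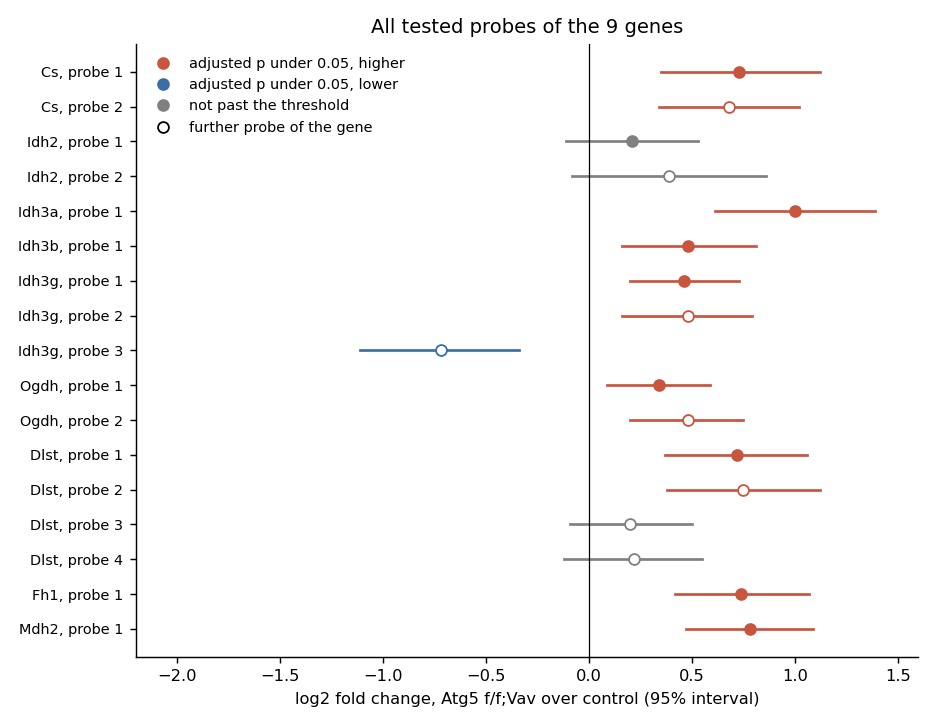
Log2 fold change of Atg5 f/f;Vav over control (x axis, with 95% interval) for each of the 17 tested probes of the 9 genes. Filled points are the brightest probe of a gene and open points its further probes, and the 1 probe that fell is the dim probe of Idh3g.

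Ratios within an array do not depend on how arrays are scaled to each other by a constant, so they compare related transcripts directly. Of 9 ratios, 7 had groups that did not overlap. With 3 arrays against 3 the exact permutation test (2-sided) cannot go below p = 0.1, which was the value for each of those 7, and Benjamini-Hochberg adjustment over the 9 gave 0.129, so none passed. The log2 ratio of Idh3a to Idh3b was -0.20, -0.10 and -0.34 in control and 0.12, 0.18 and 0.61 in Atg5 f/f;Vav. Idh3a thus gained 0.52 on Idh3b in Atg5 f/f;Vav. It gained 0.54 on Idh3g, from -2.95, -2.94 and -3.04 to -2.52, -2.66 and -2.14. Idh3b and Idh3g kept nearly the same ratio, with a difference of 0.02 and overlapping groups (exact permutation p = 0.8), although quantile normalisation moved that difference to 0.19 and the mean of all probes to 0.41, each with groups apart. The ratio of Idh2 to Idh3a went from 3.60, 3.67 and 3.72 to 3.14, 3.12 and 2.37, a difference of -0.79 that every array showed. Leaving out an array in turn kept it between -0.92 and -0.53.

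The mitochondrial enzymes were also set against their cytosolic counterparts, which carry out the same reactions outside the matrix. Mdh1, the cytosolic malate dehydrogenase, did not pass the test (0.18; limma adjusted p = 0.335), and the ratio of Mdh2 to Mdh1 went from 2.22, 2.17 and 2.26 to 2.52, 2.81 and 3.11. That is a difference of 0.60 with groups apart. Idh1, the cytosolic NADP enzyme, was at -0.26 (limma adjusted p = 0.109) on a dim probe. The ratio of Idh2 to Idh1 was 0.48 higher in Atg5 f/f;Vav, with groups apart, but -0.12 with quantile normalisation. Fh1 and Mdh2, which act one after the other, kept their ratio within the spread of arrays (difference -0.04; exact permutation p = 0.6).

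**Figure D3:**
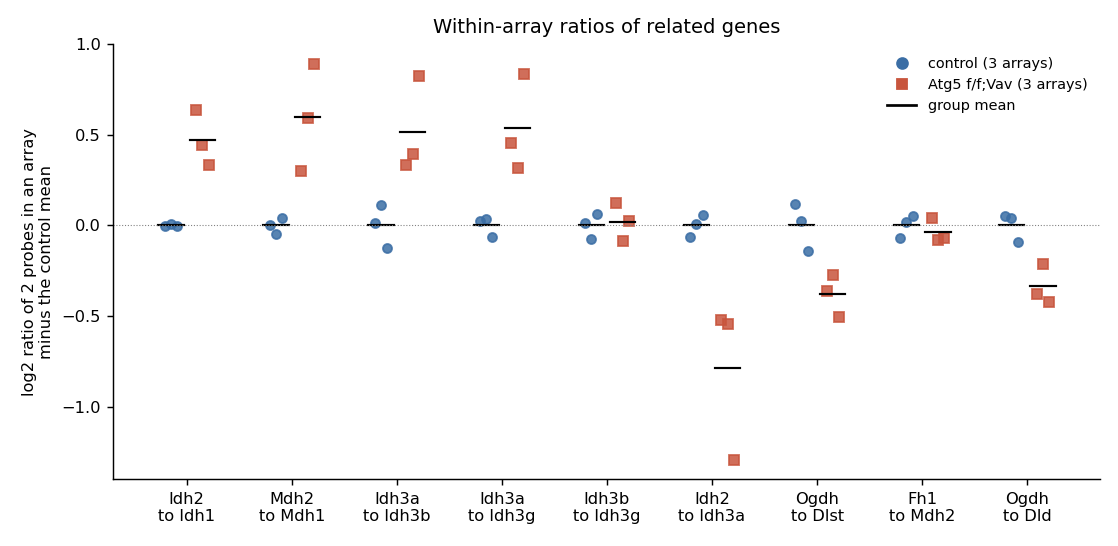
Log2 ratio of the probes of 2 genes within an array, minus the control mean of that ratio, for 3 control arrays (circles) and 3 Atg5 f/f;Vav arrays (squares), with group means as bars. The groups overlap for Idh3b to Idh3g and Fh1 to Mdh2 and are apart for the other 7 ratios.

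The oxoglutarate dehydrogenase complex is made of Ogdh (E1, which decarboxylates the substrate), Dlst (E2, which carries lipoic acid and forms succinyl-CoA) and Dld (E3, shared with the pyruvate dehydrogenase complex). Dlst, read at chr12:86474939-86474998, gave 3.23, 3.29 and 3.52 in control and 3.96, 3.93 and 4.30 in Atg5 f/f;Vav. The groups were well apart, and Dlst rose by 0.72 ± 0.15 (SE; 95% interval 0.37 to 1.06; limma adjusted p = 0.0178). A second, dimmer Dlst probe rose by 0.75 (adjusted p = 0.0184), while the remaining probes, upstream of both, were at 0.20 (adjusted p = 0.237) and 0.22 (adjusted p = 0.257) and did not pass.

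Ogdh showed the smallest called rise among the 9 genes. Its probe at chr11:6256511-6256570 gave 3.61, 3.58 and 3.64 in control and 3.86, 3.92 and 4.06 in Atg5 f/f;Vav, with control arrays almost at the same level. The difference was 0.34 ± 0.11 (SE; 95% interval 0.09 to 0.59; limma adjusted p = 0.0470), close to the threshold. The call was lost under 11 of 17 alternative settings, although among them the difference itself fell below 0.28 only with the percentile over detected probes (0.18) and with quantile normalisation (0.02). A second Ogdh probe rose by 0.48 (adjusted p = 0.0247), and the remaining Ogdh probe was not well above background on any array and was not tested. Ogdh lost 0.38 on Dlst, the log2 ratio going from 0.38, 0.29 and 0.12 to -0.10, -0.01 and -0.24, and it lost 0.34 on Dld. With the mean of all probes of each gene the difference from Dlst was -0.06 with overlapping groups.

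The closing steps of the cycle rose together in size. Fh1 encodes fumarase, which adds water to fumarate, and its probe at chr1:177531530-177531589 gave 3.04, 2.97 and 3.35 in control and 3.86, 3.77 and 3.96 in Atg5 f/f;Vav. It rose by 0.74 ± 0.14 (SE; 95% interval 0.42 to 1.07; limma adjusted p = 0.0164). Mdh2, which oxidises malate to oxaloacetate, was read at chr5:136266157-136266216 and gave 5.94, 5.78 and 6.12 in control and 6.65, 6.67 and 6.86 in Atg5 f/f;Vav. Its rise was 0.78 ± 0.13 (SE; 95% interval 0.47 to 1.09; limma adjusted p = 0.0153). For either gene every Atg5 f/f;Vav array lay above every control array, also with quantile normalisation, where the rises were 0.44 and 0.49.

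**Figure D4:**
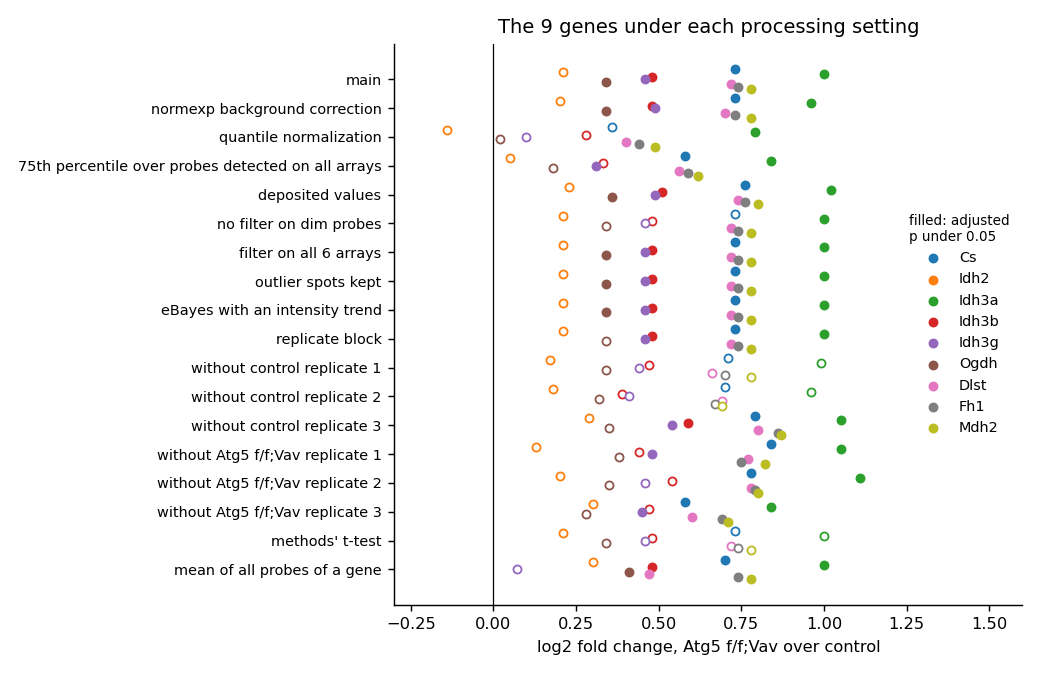
Log2 fold change of each of the 9 genes (x axis, Atg5 f/f;Vav over control) under the setting used here (top) and 17 alternatives. Filled points have an adjusted p under 0.05, the only value below 0 is Idh2 under quantile normalisation (-0.14), and no point is filled without control replicate 1, without control replicate 2 or in the methods' t-test.

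The rest of the cycle was read from a list of 10 further enzyme genes. Of the 9 tested, 6 rose and none fell, and all 9 had every Atg5 f/f;Vav array above every control array, beside the 21.2% and 33.3% of all named genes. For the closest of them the gap between the groups rounded to 0.0. Their median was 0.52, and with quantile normalisation 3 rose. As for the 9 genes above, the calls rested on few arrays. Of the 63 tested entries in the 8 lists described from here to the proliferation genes, 36 were past the threshold, but none was without control replicate 1 (limma; 38 with an unadjusted p under 0.05), without control replicate 2 (35) or in the methods' t-test (46). Sdhd and Sdhb, a membrane anchor and the iron-sulphur subunit of succinate dehydrogenase, rose by 0.81 (adjusted p = 0.0153) and 0.69 (adjusted p = 0.0174), and Dld rose by 0.67 (adjusted p = 0.0168). Ogdhl, a relative of Ogdh best known from brain, was not well above background on any array. Over both lists, 14 of 18 cycle genes rose and the median was 0.54. In the list of 4 SDH assembly factors, which help to mature that enzyme, Sdhaf1 (0.42), Sdhaf2 (0.51) and Sdhaf3 (0.67) rose, and Sdhaf4 was at 0.16 and did not pass. None of the 4 was past the threshold without Atg5 f/f;Vav replicate 1, with the percentile over detected probes or with no filter on dim probes (limma; 3 had an unadjusted p under 0.05 in each case), and 1 was without control replicate 3 or without Atg5 f/f;Vav replicate 3.

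Pyruvate reaches the cycle through the mitochondrial pyruvate carrier and the pyruvate dehydrogenase complex, and of 12 tested genes of that route 3 rose, 1 fell and the median was 0.23, a share of rises near the 21.2% of all named genes. Mpc1 of the carrier rose by 0.66 (adjusted p = 0.0202), and the E1 subunits Pdhb and Pdha1 rose by 0.56 (adjusted p = 0.0173) and 0.51 (adjusted p = 0.0299). Further probes of these genes disagreed, ranging from -0.20 to 0.70 for Mpc1 and from -0.16 to 0.05 for Pdhb, with the other Pdha1 probe at -0.59. Pdk2, a kinase that inactivates the complex, fell by 0.58 on the log2 scale (limma adjusted p = 0.0283), from -0.02, -0.10 and 0.02 to -0.48, -0.45 and -0.91. Of the 4 genes for making and attaching lipoic acid, the cofactor of Dlst, Lias (lipoic acid synthase) rose by 0.72 and Mcat, which acts in the fatty acid synthesis that precedes it, by 0.74, while the further Lias probes were at 0.03 and 0.36 and Lipt1 (0.22) and Lipt2 (0.19) did not pass. Averaged over their probes, 1 of these 4 genes passed.

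Among 10 tested genes of anaplerosis and glutamate entry, the reactions that refill the cycle, 5 rose and 1 fell, with a median of 0.54. Gls2, a glutaminase, is among the 5, but only 2 of the 3 control arrays measured it above background. It thus entered the test through the Atg5 f/f;Vav arrays, where it was higher, and its call carries no weight. Its values were -4.39, -5.18 and -4.27 in control and -3.86, -3.25 and -2.48 in Atg5 f/f;Vav. Got1, the cytosolic aspartate aminotransferase, rose by 1.07 (adjusted p = 0.0174), and Pcx, the pyruvate carboxylase that makes oxaloacetate, rose by 0.90 (adjusted p = 0.0304). Me3, a mitochondrial malic enzyme, was dim and not well above background on any Atg5 f/f;Vav array. It was the gene that fell, but it entered the test only through the control arrays, where it was higher, so its call carries no weight. It was at least 1.19-fold lower in Atg5 f/f;Vav, a bound that takes the lowest signal called well above background on each array in place of a dimmer one. Of 9 genes of cytosolic counterparts and export, 4 rose and none fell, with a median of 0.31, beside the 21.2% of all named genes that rose. With quantile normalisation 2 of the 9 passed and the median was 0.20, and with no filter on dim probes 2 passed. The dicarboxylate carrier Slc25a10 is among the 4, but only 1 control array measured it above background, so it entered the test through the Atg5 f/f;Vav arrays and its call carries no weight. Its values were -5.24, -5.20 and -4.37 in control and -3.10, -3.28 and -3.23 in Atg5 f/f;Vav. Slc25a1, which exports citrate, rose by 0.70 (adjusted p = 0.0175), and Slc25a12, an aspartate-glutamate carrier, by 0.64 (adjusted p = 0.0270), with its further probes between -0.46 and 0.82.

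The list for 2-hydroxyglutarate and NAD(P) handling covers side products and cofactors of the isocitrate step. Nadk, which makes NADP, was the only 1 of 5 to rise (0.57; adjusted p = 0.0254). Its mitochondrial relative Nadk2 was at 0.67 (adjusted p = 0.0509), D2hgdh at -0.25 (adjusted p = 0.16) and Nnt at -0.36 (adjusted p = 0.205), none past the threshold.

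**Figure D5:**
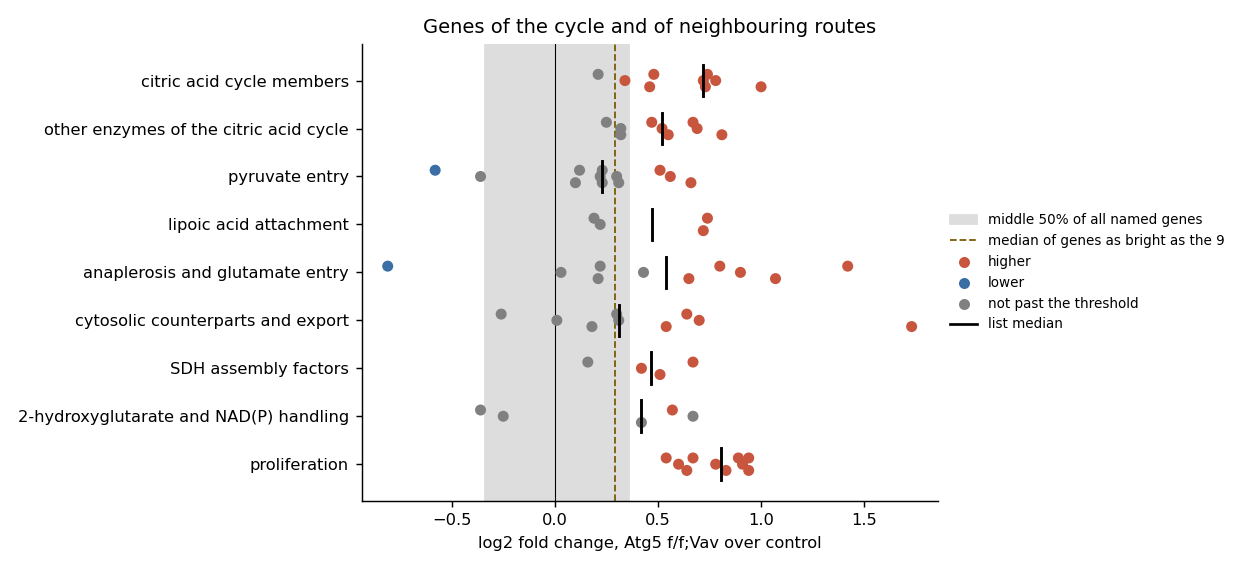
Log2 fold change of every tested gene (points) in the list of 9 and in 8 further lists, with list medians as bars. The grey band spans the middle 50% of all named genes (-0.34 to 0.36), and the dashed line marks the median of genes as bright as the 9 (0.29).

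Other genes moved with the cycle enzymes on the same arrays, and their part in the rise was not tested. All 10 proliferation genes rose, with a median of 0.80 (6 and 0.51 with quantile normalisation), beside the 21.2% of all named genes that rose. Their median level was 3.21, 2.97 and 3.46 in control and 4.0, 3.90 and 4.33 in Atg5 f/f;Vav. Top2a (0.94), Cdk1 (0.94) and Ccnb1 (0.91), which serve DNA untangling and entry into mitosis, rose most. The median level of the 9 cycle genes over the same arrays was 3.61, 3.58 and 3.64 in control and 3.96, 3.93 and 4.30 in Atg5 f/f;Vav. The lowest array median of either list in Atg5 f/f;Vav was thus above its highest control median. For the 9 genes the median fell on the Ogdh probe in control and on the Dlst probe in Atg5 f/f;Vav. It thus sets different probes against each other, and within a probe the groups overlapped for Idh2.

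Markers of the sorted population were present but not level between the groups. Kit, the c-Kit of the gate, was bright in both groups and at -0.38 (limma adjusted p = 0.0563), and Ly6a, which encodes Sca-1, rose by 1.57 (adjusted p = 0.00623). Cd34, the brightest gene of that list, was at -0.27 (adjusted p = 0.36). With Kit and Ly6a, the list holds 7 surface markers of early haematopoietic cells, of which 1 rose (Ly6a) and 1 fell, and its summed signal, in multiples of the 75th percentile, was 143, 150 and 154 in control and 159, 130 and 101 in Atg5 f/f;Vav. Of 12 stem cell genes, 7 fell and none rose, with a median of -1.04, beside the 13.5% of all named genes that fell. Hlf and Mecom, transcription factors of HSCs, fell by 1.65 and 1.75 on the log2 scale, and Meis1, the brightest of the list, fell by 0.78. The summed signal of the list was 61.5, 61.5 and 56.4 in control and 38.7, 38.3 and 23.8 in Atg5 f/f;Vav.

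Lists of other cells that the fraction could hold also differed. The counts of each list stand beside the 21.2% of all named genes that rose and the 13.5% that fell. Of 12 erythroid genes, 5 rose and 4 fell. Hba-a1, a globin and the brightest of them, fell by 2.26 on the log2 scale, and Klf1, a regulator of early erythroid cells, rose by 2.95. Chosen after their values were seen, Gata1 (3.0), Car1 (3.8), Tfrc (2.15) and Epor (2.08) are the other 4 that rose. Slc4a1 (-2.29), Alas2 (-2.07) and Hbb-b1 (-1.92), chosen in the same way, fell with Hba-a1. The summed erythroid signal, mostly that of Hba-a1, was 530, 502 and 240 in control and 103, 143 and 173 in Atg5 f/f;Vav, so every control array was above every Atg5 f/f;Vav array, control replicates 1 and 2 by the most. The median level of the 12 genes ran the other way, at 1.11, 0.92 and 0.72 in control and 1.22, 1.72 and 2.38 in Atg5 f/f;Vav. That median also fell on different probes between the groups. Of 12 neutrophil genes, 4 rose and 6 fell. Mpo rose by 1.0 (adjusted p = 0.0391), and Elane was at -0.21 (adjusted p = 0.589). The 6 that fell, also chosen after their values were seen, were Ltf (-1.38), Camp (-1.29), Ngp (-1.21), S100a8 (-1.38), S100a9 (-1.34) and Mmp8 (-1.61). Ctsg (1.91), Prtn3 (0.89) and Ly6g (0.71) rose with Mpo. The summed neutrophil signal, which adds these opposite changes, was 235, 182 and 301 in control and 305, 246 and 299 in Atg5 f/f;Vav, with overlapping groups.

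Of 8 tested stromal genes, 3 fell and none rose. Col1a1, which encodes a collagen of bone and stroma, gave -4.14, 3.23 and 2.95 in control. It was not well above background on any Atg5 f/f;Vav array, so it entered the test only through the control arrays and its call carries no weight. On group means Col1a1 was at least 39.0-fold lower in Atg5 f/f;Vav. The high values were those of control replicates 2 and 3, so that bound does not describe control replicate 1. Col1a2 gave -0.90, 3.47 and 2.90 in control and -1.94, -2.10 and -1.60 in Atg5 f/f;Vav. Lepr, the brightest of the list, was at -0.24 (adjusted p = 0.539), and Col3a1 was not well above background on any array. The summed stromal signal was 10.6, 41.2 and 31.1 in control and 7.04, 9.88 and 9.84 in Atg5 f/f;Vav.

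Further marker lists cover mature blood cells that the sort is meant to remove and rarer progeny of the fraction. Of 7 tested genes of surface antigens on mature cells, Ly6g of neutrophils rose by 0.71 and none fell. Itgam, the brightest of that list, encodes part of Mac-1, which the methods add to the lineage stain only for older mice, and was at -0.62 (adjusted p = 0.0618), Il7r was at -0.02, and Cd8a was not well above background on any array. The summed signal of the list, mostly that of Itgam, was 41.1, 35.4 and 27.6 in control and 20.3, 28.1 and 23.5 in Atg5 f/f;Vav. In the macrophage and monocyte list 2 of 6 tested genes rose and none fell, with a summed signal of 5.10, 6.42 and 7.30 in control and 8.62, 8.24 and 8.95 in Atg5 f/f;Vav. Csf1r, its brightest gene, was at 0.33 and Adgre1 at -0.31, neither past the threshold, and Mrc1 was not well above background on any array.

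In the B cell list 1 of 8 genes was called higher and none lower. That gene, Cd79a, was measured above background on 1 control array and entered the test through the Atg5 f/f;Vav arrays, so its call carries no weight. The brightest gene, Cd79b, was at -0.12 and did not pass the threshold, and the summed signal was 12, 9.26 and 12.4 in control and 17.9, 10.7 and 10.9 in Atg5 f/f;Vav. In the T and NK cell list none of 5 tested genes passed the limma test (adjusted p = 0.124 for the brightest, Nkg7, and 0.871 for Cd3e). Cd3g, Cd8a and Il2rb of that list were not well above background on any array, and the summed signal was 12, 11.5 and 15.6 in control and 16.8, 14.8 and 12.9 in Atg5 f/f;Vav.

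Of 7 tested megakaryocyte genes, 2 rose and 3 were called lower, among them Ppbp, which no Atg5 f/f;Vav array measured above background and which entered the test only through the control arrays. Itga2b, an integrin of platelets and their precursors, rose by 1.17 (adjusted p = 0.0136), Pf4 was at 0.69 (adjusted p = 0.0731), and Gp9, the brightest, fell by 0.63 on the log2 scale. The summed signal was 9.42, 8.30 and 7.87 in control and 7.21, 7.27 and 7.09 in Atg5 f/f;Vav. Of 8 genes of mast cells, eosinophils and basophils, 1 rose and 1 fell. Gata2, the brightest, was at 0.26, Mcpt8 at 0.76 and Cpa3 at -0.30, none past the threshold, with a summed signal of 19.9, 13.7 and 27.4 in control and 19.4, 15.6 and 16.5 in Atg5 f/f;Vav. The part of any of these cells in the rise of the cycle genes was not tested.

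Promoter windows of 300 bases, from 250 before to 50 after the RefSeq gene start on GRCm38.p6, were found for 8 of the 9 genes, with 6 windows for Ogdh. Mdh2, Idh3g and Idh2 are shown, as genes that rose clearly, rose modestly and did not pass, with every match to the searched letters in capitals.
Mdh2, chr5:135778399-135778698, plus strand: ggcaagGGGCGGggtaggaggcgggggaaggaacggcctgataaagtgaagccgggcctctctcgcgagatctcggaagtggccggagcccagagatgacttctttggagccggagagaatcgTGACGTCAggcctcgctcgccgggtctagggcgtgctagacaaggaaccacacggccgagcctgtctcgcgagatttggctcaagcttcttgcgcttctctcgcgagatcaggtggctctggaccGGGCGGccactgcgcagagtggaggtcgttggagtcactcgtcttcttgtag
Idh3g, chrX:73786848-73787147, minus strand: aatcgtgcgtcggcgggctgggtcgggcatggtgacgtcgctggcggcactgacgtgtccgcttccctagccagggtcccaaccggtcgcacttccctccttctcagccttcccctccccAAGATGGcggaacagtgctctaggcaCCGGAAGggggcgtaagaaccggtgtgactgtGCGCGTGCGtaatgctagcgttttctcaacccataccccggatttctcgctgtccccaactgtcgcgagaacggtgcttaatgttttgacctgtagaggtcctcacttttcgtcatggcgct
Idh2, chr7:80115301-80115600, minus strand: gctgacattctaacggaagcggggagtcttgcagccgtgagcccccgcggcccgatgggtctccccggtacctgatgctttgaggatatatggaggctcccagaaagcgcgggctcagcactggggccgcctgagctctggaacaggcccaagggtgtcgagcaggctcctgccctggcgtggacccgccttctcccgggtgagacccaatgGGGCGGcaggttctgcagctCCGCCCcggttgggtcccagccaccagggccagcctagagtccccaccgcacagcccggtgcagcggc

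The letters searched on both strands were GGGCGG (SP1), CCGGAAG (ETS), GCGCNNGCG (NRF1), AAGATGG (YY1), CACGTG (E-box) and TGACGTCA (CRE). No pair of matches overlapped in the windows shown. SP1 letters stood in the windows of 6 of the 8 genes, Cs, Idh2, Ogdh, Dlst, Fh1 and Mdh2, against 38.2% of the 27025 genes with a window. ETS letters stood in Idh3b, Idh3g and Dlst (9.93% of all genes), NRF1 letters in Idh3g and Ogdh (13.5%), and CRE letters in Ogdh and Mdh2 (2.03%). YY1 letters were found in Idh3g alone (7.28%) and E-box letters in Ogdh alone (8.09%). No searched motif was common to all 8 genes. Idh2, which did not pass, shared the SP1 letters with 5 genes that rose, while Idh3b and Idh3g rose without them. A match describes letters and shows no binding.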

How the data were processed

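The authors hybridised RNA of 6 samples to single-colour Agilent arrays (60-mer probes, mm9) and deposited the scanner's background-corrected intensity per spot (Agilent Feature Extraction 12.0.3.1, per the submitters' processing notes), without scaling between arrays. They also deposited a table of normalised signal, which was used as an alternative. Groups follow the sample labels. Intensity was put on the log2 scale, the 75th percentile of an array's spots without controls was subtracted, spots flagged as outliers were dropped, and spots of a probe were averaged. The test was limma 3.58.1 (R 4.3.3; lmFit, eBayes, 2-sided, Benjamini-Hochberg over all probes, threshold 0.05), on the 32074 of 56605 probes that 3 or more of the 6 arrays measured well above background. The script was tested on simulated data. Arrays give no depth, and the precision is limited by how many there were.

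The 9 genes and all lists were chosen with earlier results of these data known. Named are all 9 genes with each probe, Atg5, every gene of a list of at most 6, otherwise at most 3 rises and 3 falls past the threshold, the genes of the ratios, and of each marker list its brightest gene and first 2 entries, apart from some genes and 1 ratio that are not reported here. Of the 15101 named genes, 698 names were updated from a RefSeq synonym. Ratios were compared by exact permutation with scipy 1.17.1. The background among bright genes was added after seeing the data. Alternatives were normexp correction (offset 50), quantile normalisation, a percentile over detected probes, the deposited signal, other filters, outlier spots kept, an intensity trend, the methods' t-test, a replicate block, each array left out and the mean of all probes.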

Additional observations from a re-analysis of the deposited data

How the results depend on the processing

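Over 17 alternatives, 152 of 153 fold changes of the 9 genes stayed above 0. The exception was Idh2 with quantile normalisation (-0.14), and the 136 values of the other 8 genes were all above 0, with 92 past the threshold. The other filters, the intensity trend, the replicate block and the methods' t-test use the same values as the main setting. Their fold changes could not differ from it, so these tallies hold repeated values and overstate how often the sign was checked. The count of 8 genes past the threshold became 4 with quantile normalisation and 4 with no filter on dim probes, where 56605 probes share the adjustment. With the methods' t-test it was 0 after Benjamini-Hochberg adjustment and 8 unadjusted. The median of 0.72 moved to 0.36 with quantile normalisation, 0.56 with the 75th percentile over detected probes and 0.48 with the mean of all probes. The cause of these moves was not tested. Leaving out each array in turn gave counts from 0 to 7 and medians from 0.58 to 0.79. The lowest counts came without control replicate 1 (adjusted p from 0.066 to 0.492) and without control replicate 2 (0.0695 to 0.46), where 7 genes had an unadjusted p under 0.05. Without Atg5 f/f;Vav replicate 2, 5 genes passed.

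Over all probes, limma called 11024, against 4538 with no filter, 0 with the methods' t-test (13541 unadjusted) and 251 to 10304 when an array was left out, the lowest being 330 without control replicate 1 and 251 without control replicate 2. Among the ratios, Idh2 to Idh1 turned to -0.12, Idh3b to Idh3g moved to 0.19 and Ogdh to Dld to -0.52 with quantile normalisation. With the mean of all probes Idh2 to Idh1 moved to 0.71, Idh3a to Idh3g to 0.93, Idh3b to Idh3g to 0.41 and Ogdh to Dlst to -0.06. The labels do not say whether equal sample numbers pair the arrays, and 3 arrays per group are too few to settle it. Correlations of same-numbered deviations from the group means were -0.0654, 0.189 and 0.111, and those of differently numbered ones ran from -0.301 to 0.132. With the replicate block 7 of the 9 genes and 10173 probes passed.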
